A study of Mus musculus with 5 samples.

Results

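Conventional dendritic cells type 1 (cDC1s) were examined in uninjured mouse lungs and along the course of bleomycin injury. The cells were chosen by raw counts of unique molecular identifiers (UMIs, each standing for 1 captured transcript). A cell had at least 2 UMIs of *Xcr1* and *Clec9a* together, at least 5 of *H2-Aa*, at most 1 of *Fscn1*, and none of *Cd3e*, *Cd79a*, *Car4* or *Siglech*. This selected 466 of the 44772 cells that passed the quality limits, or 1.04%, and 255 of them, 54.7%, came from day 7. *Xcr1* (ENSMUSG00000060509, chr9:123852315-123862029, mm10) encodes the receptor for the chemokine XCL1. *Clec9a* (ENSMUSG00000046080, chr6:129408862-129424763) encodes a receptor for actin exposed on dead cells, and *H2-Aa* (ENSMUSG00000036594, chr17:34282744-34287823) a chain of MHC class II. Because these 3 genes defined the cells, their levels describe the selection and carry no test.

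The mice carried a tamoxifen-inducible Cre recombinase under *Ms4a3*, a gene of monocyte and granulocyte progenitors, and a tdTomato reporter (tdT) at the *Rosa26* locus (genotype *Ms4a3-CreER;R26-tdT*). All groups shared this genotype on a mixed C57BL6/129 background, and the study's design gave tamoxifen, which switches the reporter on, before PBS or bleomycin. A library of perfused, collagenase-digested lung came from adult mice given PBS (sham) and 1 each from mice at day 3, day 7, day 14 and day 28 after intratracheal bleomycin, a drug that injures the alveolar lining. How many mice contributed to a library was not given in the sources used here, so differences between time points had no replicates, and their intervals cover counting error only. The libraries held 11386 barcodes (131210167 UMIs) for sham, 8971 (89769386) for day 3, 10000 (151234640) for day 7, 9755 (144984156) for day 14 and 12688 (167506186) for day 28. The day 7 library stood apart, since its lowest barcode had 4624 UMIs against 500 to 502 in the others. Between 22 and 41 barcode sequences were shared by any pair of libraries, and 0 of them belonged to cDC1s in both.

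cDC1s develop from bone marrow precursors under the transcription factors IRF8, BATF3 and ID2 and depend on the growth factor FLT3L. They take up material from dead cells through CLEC9A and present it on MHC class I to CD8+ T cells, a process called cross-presentation, and they are a source of IL-12. In the lung they are found beneath the airway epithelium and in the alveolar wall. The related cDC2s present antigen mainly to CD4+ T cells, and dendritic cells of either kind mature, gain *Ccr7* and *Fscn1* and leave for the draining lymph node.

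The label was checked against markers outside the selection. Gene levels are in CPM, which is the number of UMIs per 1000000 UMIs of all cells of the class in that library, in the order sham, day 3, day 7, day 14 and day 28. *Irf8*, the lineage-determining factor, was at 1608, 1589, 1367, 907 and 803 CPM in cDC1s. In cDC2s (662 cells chosen by *Cd209a* and *Mgl2*) it was at 87.3, 111, 116, 92.1 and 43.5 CPM. The lowest cDC1 library was thus above the highest cDC2 library. *Naaa*, a lysosomal amidase, was at 1673, 931, 949, 575 and 436 CPM in cDC1s and at 322, 326, 181, 236 and 162 CPM in cDC2s. *Cadm1*, an adhesion molecule and common cDC1 marker, was at 221, 96.9, 106, 155 and 203 CPM against 6.7 to 18 CPM in cDC2s. Neither gene overlapped between the classes. *Itgae* (CD103), the integrin of lung cDC1s, was at 354, 289, 464, 327 and 279 CPM, and *Tlr3*, the endosomal sensor of double-stranded RNA, at 165, 77.2, 93.3, 66.1 and 90.3 CPM. *Wdfy4*, which cDC1s need for cross-presentation, was at 621, 413, 538, 390 and 316 CPM. All 3 were also higher than in cDC2s in every library. *Cd8a*, found on cDC1s of lymphoid organs, was at or near 0, with at most 0.897 CPM. The markers of the label were therefore present in the summed cells of each time point, which does not show that every member carried them.

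**Figure D1:**
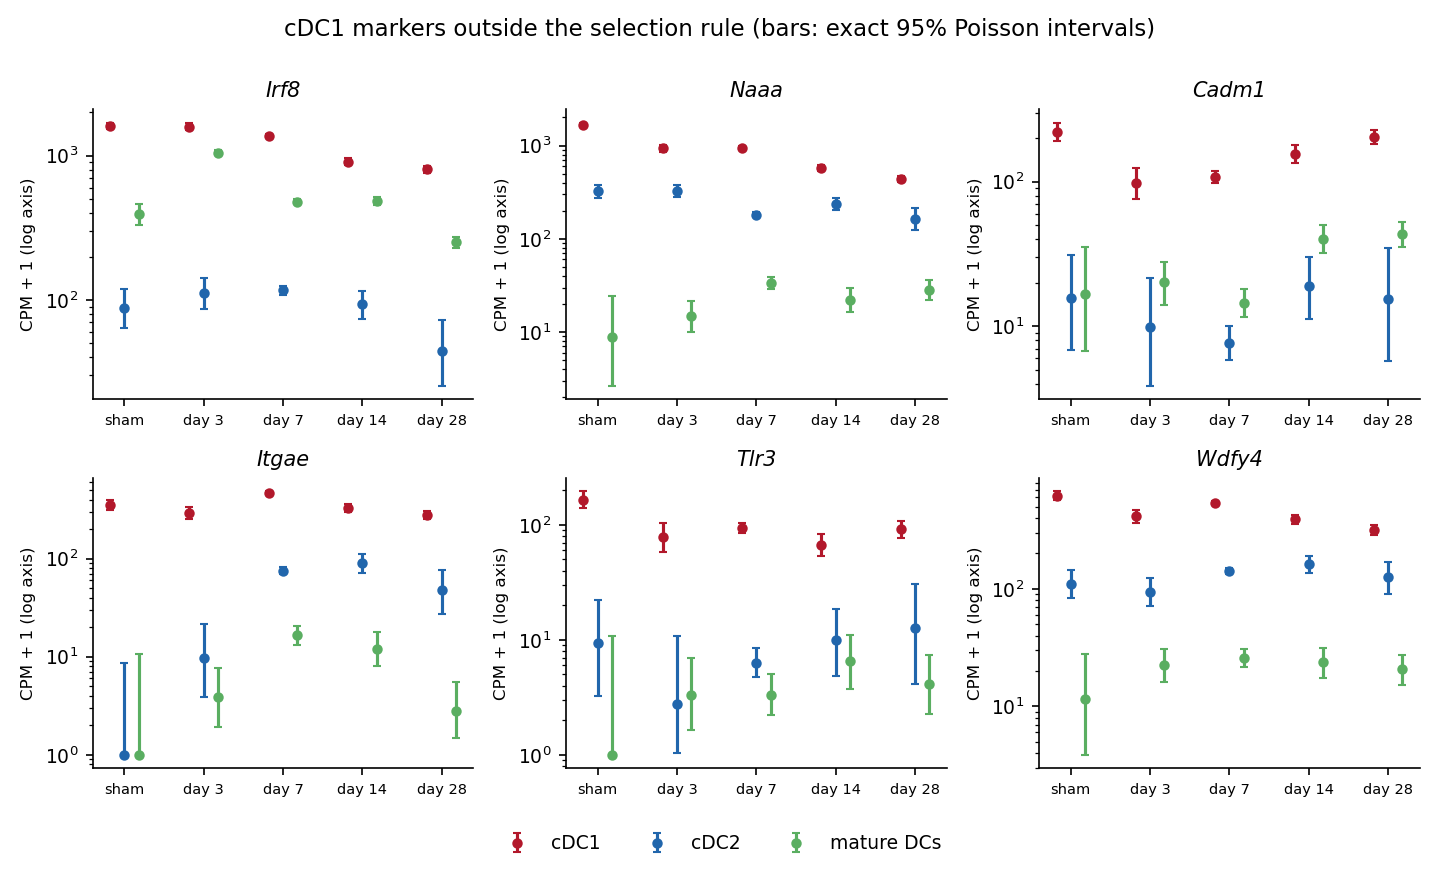
Levels of 6 cDC1 markers outside the selection rule (CPM plus 1, log axis) in cDC1s, cDC2s and mature DCs of the 5 libraries, with exact 95% Poisson intervals that cover counting error. *Irf8* in cDC1s lies between 803 and 1608 CPM and above both other classes in every library, and *Tlr3* lies between 66.1 and 165 CPM.

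The share of cDC1s among cells that passed the quality limits was highest on day 7. It was 0.52% in sham (48 of 9238 cells, exact 95% binomial interval 0.383 to 0.688%) and 0.325% on day 3 (26 of 8004, 0.212 to 0.476%). On day 7 it was 2.69% (255 of 9493, 2.37 to 3.03%), above every other library. It was 0.761% on day 14 (59 of 7757, 0.579 to 0.98%) and 0.759% on day 28 (78 of 10280, 0.6 to 0.946%). Under this rule, the day 14 and day 28 intervals overlapped each other and that of sham. When the UMI floor of the day 7 library was applied to all libraries, the shares were 0.681, 0.417, 2.69, 1.04 and 1.01%, so day 7 remained the highest. Among cells with a UMI of *Ptprc* (CD45), the shares were 0.559, 0.343, 2.85, 0.827 and 0.835%. The same counts for cDC2s were 35, 35, 508, 56 and 28 cells, and for mature DCs 26, 115, 371, 123 and 174 cells. The cDC1s had a median of 16233.5 UMIs per cell in sham, 23430 on day 3, 16497 on day 7, 19674 on day 14 and 16820 on day 28.

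**Figure D2:**
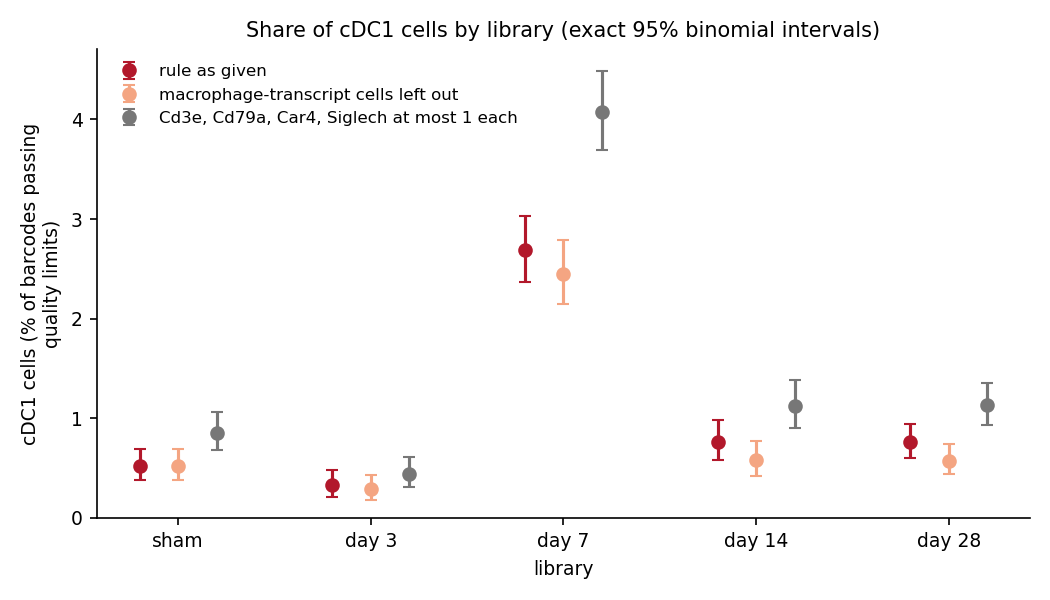
Share of cDC1s among cells that passed the quality limits (%) in the 5 libraries, with exact 95% binomial intervals, under the rule, without cells holding macrophage transcripts, and with up to 1 UMI of each of the 4 barred genes allowed. Day 7 is highest under each, at 2.69, 2.45 and 4.08%.

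The 4 barred genes removed more cells than they kept. Of 1039 cells past all other limits, 573 had a UMI of *Cd3e*, *Cd79a*, *Car4* or *Siglech*, and *Siglech*, a receptor best known from plasmacytoid DCs, alone removed 321. The 260 cells with 1 or 2 *Siglech* UMIs carried *Xcr1* at 421, *Irf8* at 1244 and *Naaa* at 767 CPM, with *Tcf4* at 92.1 and *Ly6d* at 0.934 CPM. The 139 cells with 3 or more *Siglech* UMIs held *Tcf4* at 561 and *Ly6d* at 441 CPM, both genes of plasmacytoid DCs, next to *Xcr1* at 314 CPM. The plasmacytoid genes were thus low in the first group and high in the second. *Car4*, an enzyme gene, was seen in 50.6% of *Cd209a*+ or *Mgl2*+ cells and 34.4% of *Trac*+ cells of the sham library. Of the cells past the other limits, it was seen in 43% in sham and in 11.4 to 15.4% on day 3 to day 28. The bar on *Car4* therefore took a larger part of the sham cells than of the others. *Siglech* went the other way, seen in 21.5% of the sham cells past the other limits. On day 3 to day 28 it was seen in 43.1, 36.2, 55.1 and 38.9%. All 4 bars together removed 59 of 107 cells in sham. From day 3 to day 28 they removed 39 of 65, 292 of 547, 99 of 158 and 84 of 162. The sham share was 0.855% and the day 7 share 4.08% with up to 1 UMI of each gene. With no bar, they were 1.16 and 5.76%.

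Cells just inside and just outside the other limits differed in macrophage transcripts. The 49 members with exactly 2 UMIs of *Xcr1* and *Clec9a* had *Irf8* at 628 and *Apoe*, an abundant macrophage transcript, at 7285 CPM. The 29 members with exactly 3 had *Irf8* at 793 and *Apoe* at 9377 CPM. The 388 members with 4 or more had *Irf8* at 1367 and *Apoe* at 1216 CPM, and the 239 cells left out with 1 UMI had *Irf8* at 216 and *Apoe* at 9631 CPM. The 37 cells left out for 2 or more *Fscn1* UMIs had the maturation genes *Ccr7* at 2190 and *Ccl22* at 3050 CPM, and *Naaa* at 43.9 CPM. In all, 58 of 466 members (12.4%) held over 5 UMIs of *C1qa*, *C1qb* and *C1qc* together or over 50 UMIs of 9 alveolar macrophage genes. They numbered 0 in sham, 3 on day 3, 22 on day 7, 14 on day 14 and 19 on day 28, or 0, 11.5, 8.63, 23.7 and 24.4% of the members. The cDC2 rule capped the C1q genes and held only 0, 0, 6, 1 and 1 such cells, so many values below are also given for the remaining members, called macrophage-low. In tests of gene levels between classes, such cells were left out of both. For the reporter they were left out of cDC1s only. Many members with macrophage transcripts on day 14 and day 28 had 0 UMIs of *Xcr1* and few of *Irf8*. An example from day 14 had 6 UMIs of *Irf8* and 438 of the C1q genes. Others held both genes, as did a day 7 member with 4 UMIs of *Xcr1*, 27 of *Irf8* and 595 of C1q. Whether such members are cDC1s was not tested.

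The first comparison asked how cDC1s differed from cDC2s of the same lungs. Of the listed genes that were tested, 23 of 27 cDC1 identity genes and 12 of 25 genes of the MHC class I pathway were higher in cDC1s, and 19 of 25 cDC2 identity genes were lower. *Gcsam*, *Cd207* and *Dnase1l3* led the increases, and *Retnla*, *Tmem176a* and *Tmem176b* the decreases. UMIs were summed per class and library and compared across the 5 libraries with edgeR's quasi-likelihood test, with the library as a block and Benjamini-Hochberg adjustment over 6866 genes. In cDC1s, 416 genes (6.06%) were higher and 355 (5.17%) lower, 771 (11.2%) in all, and the median log2 fold change of all genes was -0.01. In macrophage-low members, 591 of 6506 (9.08%) were higher and 560 (8.61%) lower. The 13 genes of the selection rules were left out. Genes that vary with those were bound to differ, because the classes were drawn from the same cells, and the test shows that a difference recurred in the 5 libraries.

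*Gcsam*, a signalling adaptor of germinal centre B cells, had the highest log2 fold change. It was at 74.5, 56, 77.3, 39.6 and 42.8 CPM in cDC1s and 0, 0, 0.152, 0 and 0 CPM in cDC2s, from 557 UMIs against 1 (569-fold, counting interval 102 to 22511; edgeR adjusted p = 4.9e-06). *Cd207*, which encodes langerin, was at 207, 53, 49.3, 99.1 and 104 CPM against 0, 0, 2.44, 0 and 0 CPM (log2 fold change 5.39 ± 0.46 SE). Both genes were at or near 0 in cDC2s. *Irf8* was higher by 3.81 ± 0.17 and *Cadm1* by 3.71 ± 0.18 on the log2 scale (edgeR adjusted p = 4.9e-06 and 7.4e-06). *Tlr3* was higher by 3.88 ± 0.27. The endosomal GTPase gene *Rab7b* was at 381, 224, 229, 230 and 184 CPM in cDC1s against 5.8 to 22.9 CPM (4.44 ± 0.23). The remaining 4 of the 10 largest increases were *Dnase1l3*, a nuclease that digests DNA in apoptotic material (5.39 ± 0.66), *Agpat3*, a phospholipid acyltransferase (5.02 ± 0.39), *Plpp1*, a lipid phosphatase (4.11 ± 0.45), and *Igf2r*, the mannose-6-phosphate receptor (3.45 ± 0.30). All 10 were higher in 5 of 5 libraries, which the choice of named genes required.

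Among the 10 largest decreases, *Retnla*, a secreted protein of type 2 responses, was at 1.16, 0, 26.7, 5.78 and 6.11 CPM in cDC1s. In cDC2s it was at 47.8, 123, 90.5, 671 and 2719 CPM, with day 28 far above the others (log2 fold change -5.61 ± 1.06, edgeR adjusted p = 0.0084, and -4.03 ± 0.64 without members holding macrophage transcripts). *Clec10a*, a galactose-binding lectin, was at 5.82, 4.54, 27.8, 11.6 and 8.82 CPM against 295, 312, 227, 194 and 157 CPM (-4.13 ± 0.35). *S100a4*, a calcium-binding protein, was at 188, 348, 225, 432 and 117 CPM against 2129, 2802, 3739, 3195 and 2852 CPM (-3.58 ± 0.26). No library of cDC1s reached the cDC2 range of these genes. The others were *Tmem176a* (-4.61 ± 0.51) and *Tmem176b* (-4.59 ± 0.44), a pair of neighbouring membrane protein genes, *Cd209d* (-4.18 ± 0.43), *Siglece* (-4.05 ± 0.27), *Ifitm1* (-4.00 ± 0.25), *Ltb*, which encodes lymphotoxin beta (-3.72 ± 0.44), and *Ifitm6* (-3.64 ± 0.49). Each was lower in 5 of 5 libraries, again as the choice required.

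**Figure D3:**
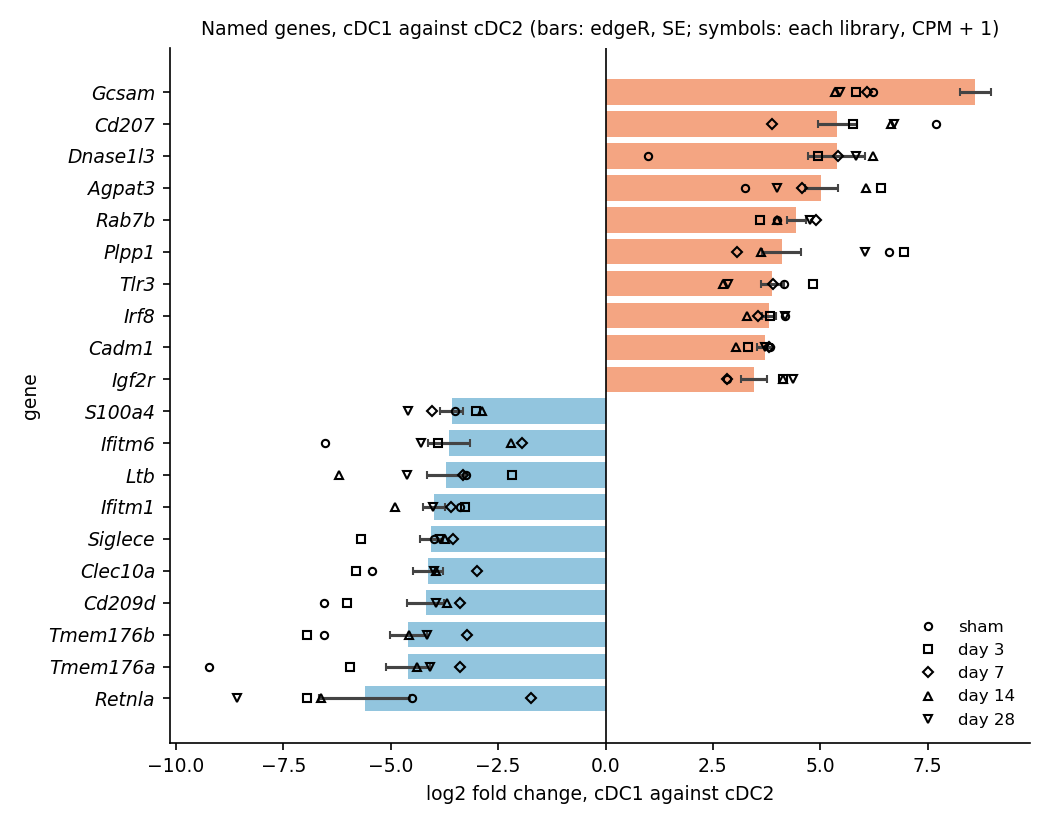
Log2 difference between cDC1s and cDC2s for the 20 named genes. Bars show edgeR's log2 fold change ± SE over the 5 libraries and symbols the log2 ratio of each library after adding 1 CPM, which draws the ratios of sparse genes such as *Gcsam* toward 0. *Gcsam* has the tallest bar, at 8.61, and *Retnla* the lowest, at -5.61.

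Of 30 cDC1 identity genes, 27 were tested, and 23 were higher and 0 lower than in cDC2s (median log2 fold change 1.98, against -0.01 for all genes). The list holds known cDC1 genes, so its direction is no independent evidence. *Naaa* was higher by 1.84 ± 0.20, *Wdfy4* by 1.86 ± 0.20 and *Cd24a*, a mucin-like surface protein, by 1.61 ± 0.17. *Batf3* was at 100, 99.9, 154, 84.2 and 63.8 CPM in cDC1s and 79, 63.4, 53, 76.4 and 63.8 CPM in cDC2s. These ranges overlapped, and its difference of 0.65 ± 0.23 did not pass (edgeR adjusted p = 0.112). In macrophage-low cDC1s it was 0.89 ± 0.19 (edgeR adjusted p = 0.00857). *Id2* did not pass either, at 1.03 ± 0.30 (edgeR adjusted p = 0.0579), and in the macrophage-low cells it was 1.21 ± 0.23 (edgeR adjusted p = 0.00386). *Flt3*, the receptor of FLT3L, was higher by 1.02 ± 0.26, and *Zbtb46*, a factor of all conventional DCs, differed by 0.22 ± 0.22 (edgeR adjusted p = 0.627). Of 25 tested cDC2 identity genes, 19 were lower and 0 higher (median -1.88). Among these, *Irf4*, the factor tied to cDC2 function, was at 1.36 to 14 CPM in cDC1s and 39.3 to 135 CPM in cDC2s (-3.28 ± 0.32).

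All 25 genes of the MHC class I pathway were tested, and 12 were higher and 0 lower in cDC1s, with a median of 0.48, against 6.06% higher and 5.17% lower among all genes. *Psmb9*, an immunoproteasome subunit, was at 477, 952, 497, 315 and 257 CPM in cDC1s and at 154, 453, 170, 126 and 119 CPM in cDC2s (1.37 ± 0.14, edgeR adjusted p = 0.000332). It was higher in cDC1s of each library, and both classes peaked on day 3. The peptide transporter genes *Tap1* (0.90 ± 0.16) and *Tap2* (1.33 ± 0.14), the proteasome activator genes *Psme1* (0.95 ± 0.13) and *Psme2* (0.76 ± 0.12), and *Nlrc5*, the class I transactivator (1.00 ± 0.21), also passed. The class I heavy chain genes *H2-K1* (0.34 ± 0.11, edgeR adjusted p = 0.0918) and *H2-D1* (0.24 ± 0.13, edgeR adjusted p = 0.312) did not pass, nor did the light chain gene *B2m* (0.17 ± 0.14, edgeR adjusted p = 0.514). For MHC class II, 14 genes were tested, 1 was higher and 2 lower (median -0.14). The higher gene was *H2-Ob* (1.09 ± 0.23), which limits peptide loading, and the lower genes were *Ifi30*, a lysosomal thiol reductase (-0.80 ± 0.11), and *H2-DMb2* (-1.30 ± 0.32). *H2-Ab1* differed by -0.24 ± 0.15 (edgeR adjusted p = 0.362).

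Genes for uptake of dead cells were partly higher in cDC1s. Of 13 tested, 6 were higher and 2 lower (median 0.89), against 6.06% and 5.17% of all genes. For the macrophage-low members alone, 11 were tested, 6 were higher and 3 lower, against 9.08% and 8.61%. *Cd36*, a scavenger receptor, was at 233, 99.9, 121, 221 and 273 CPM in cDC1s and 45.7, 30, 14.8, 11.2 and 23.2 CPM in cDC2s (2.99 ± 0.29, edgeR adjusted p = 0.000296). The ranges did not overlap. *Havcr2* (TIM-3), a receptor for phosphatidylserine, was higher by 1.65 ± 0.19, *Timd4* by 1.79 ± 0.42 and *Ly75* (DEC-205), an endocytic receptor, by 1.98. *Mrc1*, the mannose receptor, had a log2 fold change of -1.62 ± 0.45 and *Dab2*, an endocytic adaptor, of -2.01 ± 0.31. In macrophage-low members, these were -3.51 ± 0.23 and -3.24 ± 0.18, so both genes lay further below cDC2s. Pattern recognition genes went both ways, against the same shares of all genes. Of 16 tested, 2 were higher, *Tlr3* and *Clec12a*, and 4 lower, *Tlr2* (-1.21 ± 0.25), *Ddx58* (RIG-I), *Cd14* (-1.44 ± 0.32) and *Nlrp3* (median of the list -0.30). With macrophage-low members 6 were lower, with *Tlr2* at -2.02 ± 0.21 and *Cd14* at -2.62 ± 0.20.

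Of 10 tested cytokine genes, 3 were higher and 1 lower, against 6.06% and 5.17% of all genes. Among macrophage-low cDC1s, 9 were tested, 2 were higher and 4 lower, against 9.08% and 8.61%, so the balance of the list turned. *Tnfsf13b* was then not tested, and *Tgfb1*, *Osm* and *Il1rn* were lower as well. *Il12b*, the p40 chain of IL-12 and IL-23, was at 33.8, 120, 121, 130 and 50.2 CPM in cDC1s and 0, 1.76, 32.3, 42.7 and 2.9 CPM in cDC2s (2.43 ± 0.42, edgeR adjusted p = 0.00517). cDC1s of sham, the lowest, lay below cDC2s of day 14, while each library had more in cDC1s. *Il12a*, the other chain of IL-12, was at 0 CPM in all but day 28, where it was at 0.679 CPM. *Il18* was higher by 1.32 ± 0.22 and *Tnfsf13b* (BAFF) by 1.61 ± 0.30, and *Il1b* had a log2 fold change of -1.60 ± 0.31. Among chemokine receptors, 10 were tested, 1 was higher and 5 lower (median -0.79). *Cxcr3*, a receptor for CXCL9 and CXCL10, was at 82.7, 15.1, 28.5, 19.8 and 15.6 CPM against 0, 0, 1.37, 0 and 0 CPM (4.91 ± 0.42, edgeR adjusted p = 0.000161), highest in sham. The lower receptors included *Ccr1* (-1.82), *Cx3cr1* (-2.22), *Gpr18* and *Gpr35*, and without members holding macrophage transcripts the first 2 were at -3.24 and -4.48. Of 16 co-stimulation and checkpoint genes, *Havcr2*, *Btla* and *Cd200* were higher and *Cd80* and *Tnfsf9* lower. Of 29 transcription factors, the higher included *Irf8* and *Mycl*, and the lower were *Irf4*, *Zeb2*, *Tcf4* and *Bcl11a*. With macrophage-low members 9 were higher and 7 lower, with *Zeb2* at -3.62 against -1.79.

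Mature DCs (809 cells with at least 2 UMIs each of *Fscn1* and *Ccr7*) differed from cDC1s in many more genes. Of 8135 tested, 1848 (22.7%) were higher and 1729 (21.3%) lower in cDC1s, or 3577 (44.0%), with a median log2 fold change of 0.03. Mature DCs may derive from cDC1s or cDC2s, and the class was not split by origin. *Ccl5*, a T cell attracting chemokine, was at 15.1, 24.2, 28.5, 29.7 and 6.11 CPM in cDC1s and at 8364, 10215, 3938, 4871 and 7148 CPM in mature DCs (-8.43 ± 0.44). It was low in cDC1s and abundant in mature DCs of every library. *Ceacam15* had 0 UMIs in cDC1s and 538 in mature DCs, at least 135-fold lower against a floor of 3 counts. *Slco5a1*, a transporter family gene, had 1 UMI against 876 (661-fold, counting interval 118 to 26157), and *Tmem150c*, a membrane protein gene, 2 against 846 (319-fold, 88.2 to 2642). The other large decreases were *Nudt17* (-7.91 ± 0.29), *Ankrd33b* (-7.05 ± 0.34), *Fxyd2* (-7.04 ± 0.33), *Tnfrsf4* (OX40, -6.68 ± 0.32), the transcription factor *Spib* (-6.42 ± 0.36) and *Ndnf* (-6.32 ± 0.31).

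Conversely, *Sept3*, a septin, was at 295, 118, 280, 201 and 169 CPM in cDC1s and at most 1.95 CPM in mature DCs (7.73 ± 0.35). *Ccr2*, the receptor that guides cells from blood to tissue, was at 429, 127, 281, 201 and 270 CPM against 2.64, 7.51, 24.5, 3.02 and 2.23 CPM (4.70 ± 0.44). *Itgae* was higher by 5.46 ± 0.36, *Naaa* by 4.97 ± 0.38, *Tlr3* by 4.66 ± 0.31 and *Rab7b* by 4.62 ± 0.29. Mature DCs thus had little of these genes. *Qpct*, which modifies the ends of secreted peptides (5.59 ± 0.38), *Ckb*, a creatine kinase (5.14 ± 0.36), *Plbd1*, a phospholipase (4.42 ± 0.26), and *Gpr171*, a neuropeptide receptor (4.42 ± 0.25), completed the 10 largest increases. All named genes had the same direction in 5 of 5 libraries, because they were chosen so.

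The lists are read here against 22.7% higher and 21.3% lower among all genes. Of 27 tested cDC1 identity genes, 23 were higher than in mature DCs and 3 lower, namely *Batf3* (-1.16 ± 0.14), *Id2* and *Ly75*. Of 22 tested maturation genes, 21 were lower and 0 higher (median -3.77). *Ccl22*, a chemokine for regulatory T cells, was at 162, 332, 163, 228 and 223 CPM in cDC1s against 1339 to 3170 CPM in mature DCs. Antigen presentation split by class. Of 25 MHC class I genes, 3 were higher and 16 lower (median -0.64), and of 15 MHC class II genes 9 were higher and 2 lower (median 0.80). *H2-DMb1*, a chaperone chain that loads peptides, was at 1400, 1272, 806, 622 and 475 CPM against 63.2, 155, 77.9, 31.2 and 27.6 CPM (3.64). *Il12b* was at 543, 660, 493, 570 and 410 CPM in mature DCs, above all cDC1 libraries (-2.81 ± 0.26). Of 31 cell cycle genes, 26 were higher in cDC1s and 1 lower (median 1.88).

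The second question was how cDC1s differed along the injury. With 1 library per time point there was no test, and a gene was counted when it differed at least 2-fold from sham with at least 100 CPM in either library. On day 3, 193 of 1568 such genes (12.3%) were higher and 91 (5.8%) lower. On day 7, 38 of 1453 (2.62%) were higher and 70 (4.82%) lower, on day 14, 172 of 1571 (10.9%) and 97 (6.17%), and on day 28, 167 of 1531 (10.9%) and 125 (8.16%). All 4 comparisons share the sham library of 48 cells, and the day 3 library held 26 cells. For the macrophage-low members alone, the higher genes numbered 187, 26, 114 and 40, so the counts of day 14 and day 28 depended on members holding macrophage transcripts. Their shares, of 1568, 1441, 1510 and 1421 genes, were 11.9, 1.8, 7.55 and 2.81%, and those of the lower genes 6.7, 5.55, 4.83 and 5.49%. For cDC2s the higher genes numbered 210, 68, 121 and 58, of 1683, 1530, 1595 and 1500 genes. Below, the members of a list are counted against those at 100 CPM or more in either library, as for all genes, and medians are over members with a mean of at least 50 CPM in the 5 libraries. A member can reach either limit through the library in which it is high, so these counts and medians are descriptions.

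Interferon-stimulated genes led the day 3 difference. Of 39 measured, 24 reached 100 CPM in sham or on day 3, and all 24 were at least 2-fold higher on day 3, against 12.3% of all genes. The other 15 were below that limit in both libraries. Most of the 24 reached the limit through day 3 itself, so their number describes the day and is no test. The counts were 3 of 5, 6 of 7 and 1 of 2 on day 7, day 14 and day 28. *Isg15*, a ubiquitin-like modifier, was at 15.1 CPM in sham, 1179 on day 3, 63 on day 7, 315 on day 14 and 14.3 on day 28. *Irf7*, the factor that amplifies interferon production, was at 18.6, 1535, 126, 156 and 15.6 CPM. *Bst2*, an antiviral membrane protein, was at 78, 1164, 271, 261 and 185 CPM. Day 3 was highest and day 14 the next or nearly so, and *Isg15* and *Irf7* were near the sham level on day 28. In cDC2s, *Isg15* was at 12.5, 1686, 51, 93.2 and 34.8 CPM and *Irf7* at 10.4, 1623, 35, 19.1 and 8.7 CPM, so the day 3 level was not particular to cDC1s. *Ifnb1*, the interferon beta gene, was at 0 in cDC1s of all libraries.

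Other genes were also higher on day 3. *Ly6a* (Sca-1), a surface protein induced by interferon, was at 6.99, 2932, 172, 451 and 14.9 CPM, and day 3 was 420-fold above sham (counting interval 192 to 1145). In cDC2s it was at 1908 CPM on day 3 and 4.16 CPM in sham. *Oasl1*, an antiviral protein, had 306 UMIs on day 3 and 1 in sham (398-fold, 70.9 to 15763). *Ly6c2*, a monocyte surface gene, was at 843 against 3.49 CPM (241-fold, 82.2 to 1174) and *Ms4a4c*, a tetraspanning membrane gene, at 490 against 3.49 CPM (140-fold, 47.6 to 684). Both were also higher on day 3 in cDC2s, at 1163 and 1845 CPM against 20.8 and 102 CPM. The monocyte marker list summed to 822, 2887, 804, 1615 and 2712 CPM in cDC1s and 1830, 6703, 1025, 1147 and 1371 CPM in cDC2s, and its part in these results was not tested.

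**Figure D4:**
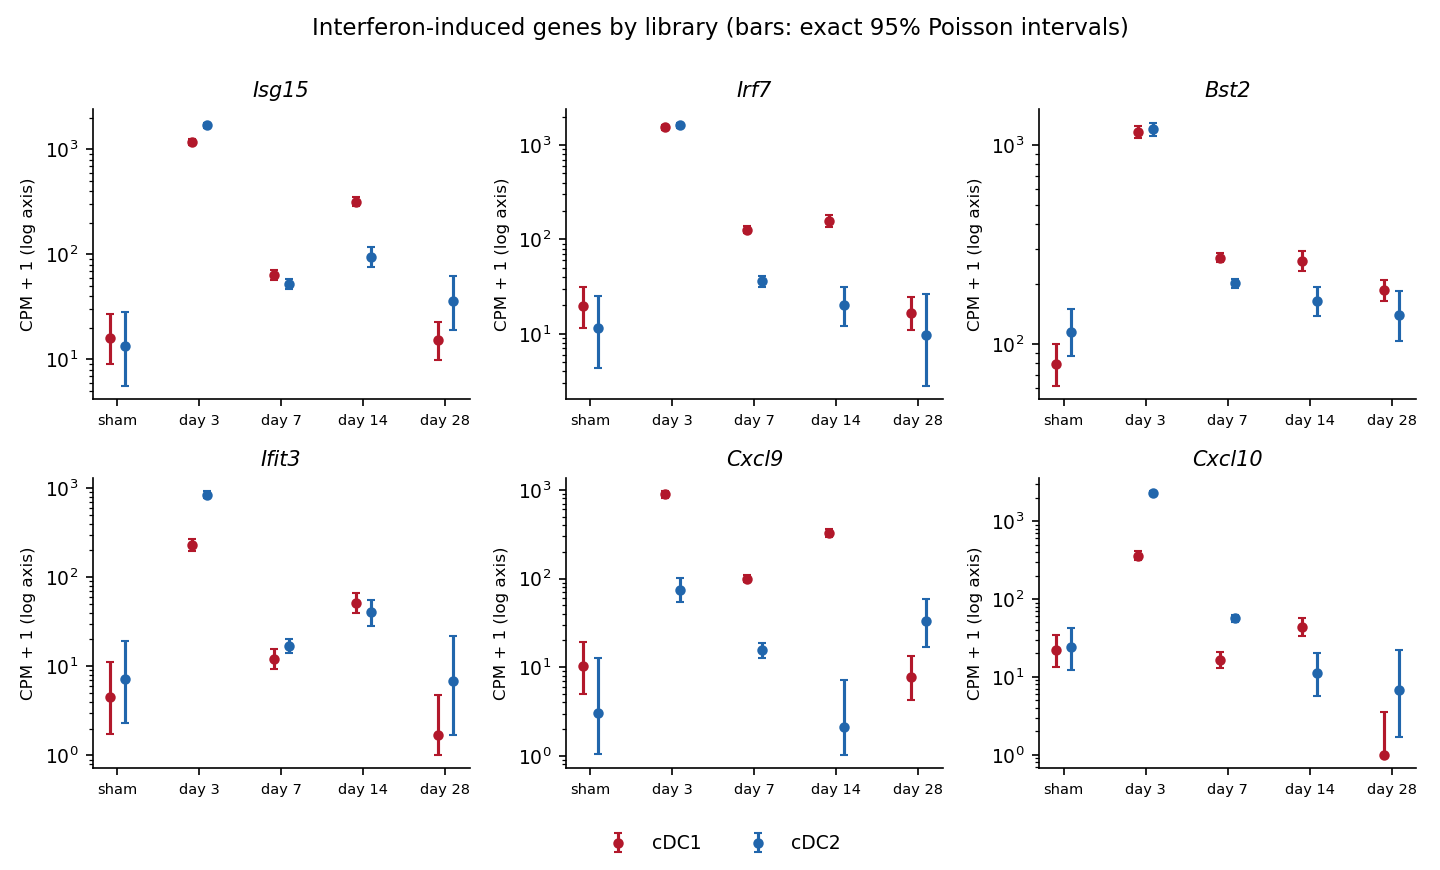
Levels of 6 interferon-related genes (CPM plus 1, log axis) in cDC1s and cDC2s of the 5 libraries, with exact 95% Poisson intervals that cover counting error. All 6 peak on day 3 in both classes, *Cxcl9* is higher in cDC1s on day 3 (887 against 74 CPM) and *Cxcl10* in cDC2s (2291 against 360 CPM).

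The promoters of these genes were searched for a motif, because they were high together. The letters were GAAANNGAAA, the core bound by interferon regulatory factors and the ISGF3 complex, on either strand (TTTCNNTTTC on the other) from 250 bases before to 50 after the start of transcription, in RefSeq promoters of GRCm38.p6. Matches may overlap. Of all 32851 promoters, 1131 (3.44%) held a match. Of the 24 interferon-stimulated genes 2-fold higher on day 3, 20 had a promoter in the table and 11 of them (55%) a match. Of the 15 not counted as higher, 11 had a promoter and 9 of them (81.8%) a match, so a match was no rarer among the genes that were not counted. Shown are the 200 bases before the start of *Isg15* (chr4:156200819-156201018, minus strand), *Bst2* (chr8:71537473-71537672, minus strand) and *Ifit3* (chr19:34583329-34583528, plus strand), which are among the genes with more than 1 match. Capitals mark the matches, which overlap in *Isg15* (from 78, 72 and 66 bases before the start) and *Bst2* (from 130 and 124) and lie apart in *Ifit3* (from 156 and 122).
Isg15: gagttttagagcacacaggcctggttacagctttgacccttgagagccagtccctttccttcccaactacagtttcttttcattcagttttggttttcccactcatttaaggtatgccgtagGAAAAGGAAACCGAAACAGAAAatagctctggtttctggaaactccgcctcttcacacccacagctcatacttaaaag
Bst2: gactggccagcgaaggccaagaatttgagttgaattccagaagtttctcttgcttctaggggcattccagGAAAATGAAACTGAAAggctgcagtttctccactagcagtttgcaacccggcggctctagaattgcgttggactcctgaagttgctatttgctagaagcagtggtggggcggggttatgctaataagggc
Ifit3: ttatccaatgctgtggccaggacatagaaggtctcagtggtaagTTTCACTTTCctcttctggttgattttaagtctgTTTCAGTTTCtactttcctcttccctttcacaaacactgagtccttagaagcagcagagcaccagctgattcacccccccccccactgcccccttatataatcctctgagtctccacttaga
A match is a string of letters and not evidence of binding. *Ifit3* itself, an antiviral protein, was at 3.49, 229, 11.2, 50.4 and 0.679 CPM in cDC1s. *Irf7* and *Oasl1* had no match in this window.

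Of 14 chemokine genes tested against cDC2s, 2 were higher, *Cxcl9* and *Cxcl16*, and 1 lower, *Ccl9* (median -0.12), against 6.06% and 5.17% of all genes. Macrophage-low cells gave 3 higher and 5 lower of 13, against 9.08% and 8.61%, so the balance of the list turned. *Cxcl9*, which attracts CXCR3+ T cells, was at 9.32, 887, 98.9, 323 and 6.79 CPM in cDC1s and 2.08, 74, 14.5, 1.12 and 31.9 CPM in cDC2s. Over the 5 libraries it was higher in cDC1s by 3.21 ± 0.82 (edgeR adjusted p = 0.0348), although day 28 went the other way. *Cxcl10*, with the same receptor, was at 21, 360, 15.7, 42.9 and 0 CPM in cDC1s and at 22.9, 2291, 55.4, 10.1 and 5.8 CPM in cDC2s. In cDC1s, 19 chemokine genes were measured. Of 11 at 100 CPM or more, 7 were at least 2-fold higher and 1 lower on day 3, against 12.3% and 5.8% of all such genes. In macrophage-low members, it was 6 and 3 of 10. *Cxcl16* was at 327, 722, 495, 623 and 466 CPM and *Ccl4*, an inflammatory chemokine, at 403, 1150, 1379, 921 and 420 CPM. Both lay above sham on each day, *Ccl4* only slightly on day 28.

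Some maturation genes were also higher on day 3. Of 23 measured, 8 reached 100 CPM, and 5 of these were at least 2-fold higher and 0 lower, against 12.3% and 5.8% of all genes (median log2 ratio of 8 members 1.00). On day 14, 3 of 7 were higher and 1 lower, against 10.9% and 6.17% (median 0.47). Among macrophage-low cDC1s, 4 of 7 were higher and 0 lower on day 14 (median 0.92). *Ccr7* was at 2.33, 162, 24.7, 168 and 15.6 CPM and *Cd40*, which receives T cell help, at 10.5, 129, 27.6, 33 and 4.75 CPM. Mature DCs, which were selected by *Ccr7*, held it at 2160 to 3422 CPM. *Cd86*, a co-stimulatory ligand, was at 263, 533, 230, 231 and 189 CPM, high on day 3 alone. *Il12b* was at 120 to 130 CPM on day 3 to day 14 and at 33.8 and 50.2 CPM in sham and on day 28. Of 20 MHC class I genes at 100 CPM or more, out of 25, 6 were at least 2-fold higher on day 3 and 0 lower, against 12.3% and 5.8% of all genes (median 0.87). For the macrophage-low members alone, 9 of 21 were higher, against 11.9% of all genes. In cDC2s 11 of 19 were higher, against 210 of 1683 among all genes.

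Immediate early genes, which respond within minutes to stimulation and to tissue digestion, were often lower on day 3 and day 7. Of 22 measured, 17 reached 100 CPM on those days, and 10 and 8 of them were at least 2-fold lower and 0 higher, against 5.8% and 4.82% lower among all genes. On day 14, 5 of 18 were lower and 2 higher, against 6.17% and 10.9%. On day 28, 3 of 17 were lower, against 8.16%, and 1 of 17 without members holding macrophage transcripts. *Fos* was at 3526, 775, 1809, 1577 and 2538 CPM, highest in sham and lowest on day 3. In cDC2s it was at 2250, 1057, 1669, 1700 and 2751 CPM. The lower genes named on day 3 included the neutrophil transcripts *S100a9* (412 CPM in sham, 15.1 on day 3) and *S100a8* (284 and 18.2 CPM). Both differences depended on the barred genes. With up to 1 UMI of each allowed, the log2 ratios were 0.01 for *S100a9* and -0.79 for *S100a8*, against -4.77 and -3.97, and neither gene was 2-fold apart. The neutrophil marker list summed to 787, 54.5, 457, 681 and 176 CPM in cDC1s, with *S100a9* the most abundant, and its part was not tested. *Lpl*, lipoprotein lipase, was at 9.08 CPM on day 3 against 101 in sham (11.2-fold lower, 4.92 to 31.2), and *Emp1*, a membrane protein gene, was 9.12-fold lower.

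On day 7, *Ltb4r1*, the high-affinity leukotriene B4 receptor, was at 8.97 CPM against 189 in sham (21-fold lower, counting interval 14.8 to 30.5), and on day 14 at 17.3 CPM. *Pdlim1*, a cytoskeletal adaptor, was 10.6-fold and *Wls*, which carries Wnt proteins to the surface, 10.1-fold lower on day 7. In cDC2s these 3 genes were also lower on day 7, at 39, 28.9 and 36.4 CPM against 139, 125 and 306 CPM in sham. *Emp1* was again lower on day 7 (5.56-fold). *Ly6a* was 24.6-fold higher on that day. *Cxcl2*, a neutrophil chemokine, was at 283 CPM on day 7 against 36.1 in sham, and at 85.9 CPM without members holding macrophage transcripts. Most of that difference thus lay in those members. *Qpct* was 6.64-fold lower on day 14. *Ccl7* (16.3-fold) and *Ccl2* (5.74-fold), ligands of CCR2, were lower on day 28, as was *Cxx1b* (5.23-fold). *Ccl7* was at 11.5 CPM on day 28 against 189 in sham, and at 1.2 CPM in macrophage-low members. *Cxx1b* was at 42.8 CPM against 224 in sham, and at 66.1 CPM in macrophage-low members, so its difference was smaller there.

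Macrophage transcripts led the differences of day 7 to day 28. *Apoe* was at 2.33 CPM in sham, 1729 on day 7, 4309 on day 14 and 5474 on day 28. Without the 58 members holding macrophage transcripts it was at 165, 333 and 255 CPM on those days, still above sham. *Mmp12*, macrophage elastase, was at 0 CPM in sham, 506 on day 14 and 929 on day 28, and at 44.5 and 42.1 CPM without those members. *Trem2*, a lipid receptor of macrophages, was at 1.16, 184 and 261 CPM in sham, day 14 and day 28, and at 12.7 and 10.8 CPM without them. *Fn1*, fibronectin, was at 102, 955 and 704 CPM on day 7, day 14 and day 28 against 4.66 in sham, and at 31.7, 129 and 49.3 CPM without them. Leaving these members out thus removed most, though not all, of each difference. *Gpnmb* on day 7 was at 185 CPM with and 21.2 CPM without them, level with the 21 CPM of sham. *Ctsl*, cathepsin L, on day 14 was at 940 CPM with and 57.3 CPM without them, against 12.8 in sham. *Mfge8*, a bridge to dying cells, on day 28 was at 964 and 123 CPM, against 4.66 in sham. Both thus stayed above sham without those members.

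**Figure D5:**
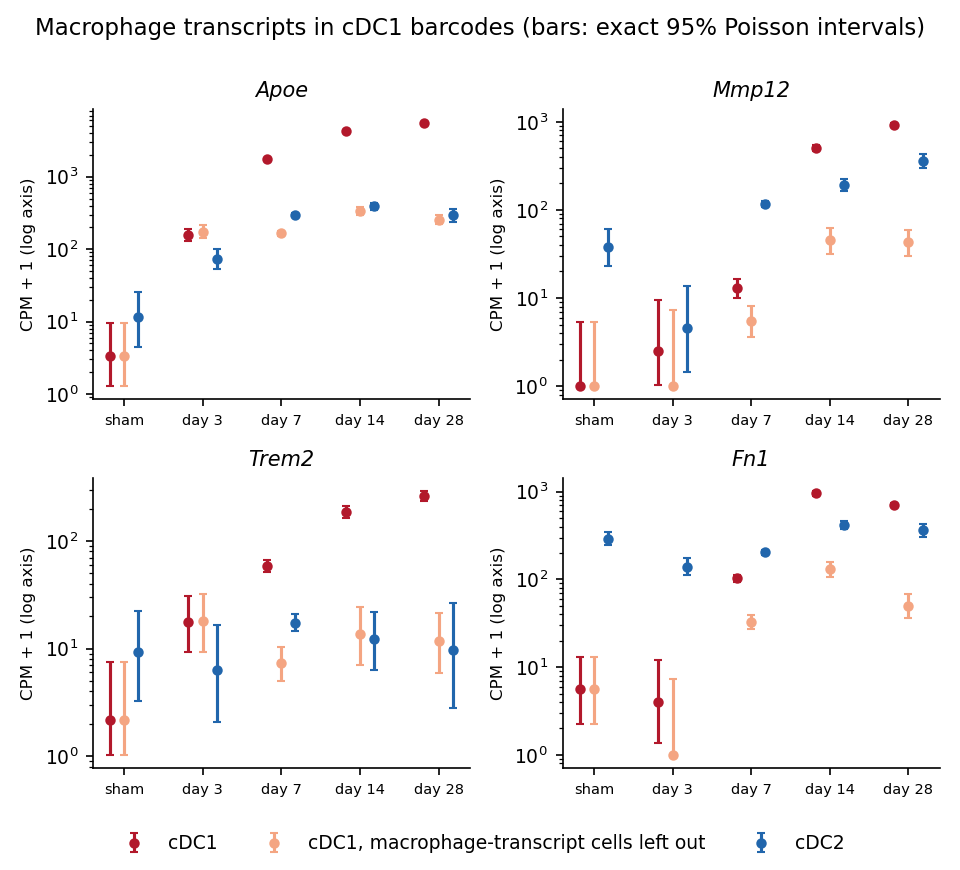
Levels of 4 macrophage genes (CPM plus 1, log axis) in all cDC1s, in cDC1s without members holding macrophage transcripts, and in cDC2s, with exact 95% Poisson intervals that cover counting error. *Apoe* on day 28 is at 5474 CPM in all cDC1s and at 255 CPM without those members.

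The 10 interstitial macrophage markers summed to 29.1, 468, 2628, 6131 and 7864 CPM in cDC1s, led by *Apoe*. In macrophage-low members, they summed to 29.1, 344, 249, 456 and 379 CPM, with *Cd163* and *Folr2* at 0. The alveolar macrophage markers summed to 679, 497, 768, 1079 and 3223 CPM, and to 467 CPM on day 28 in macrophage-low members. Those members were chosen by low counts of C1q and alveolar macrophage genes, so lower sums there describe the choice and are no test. Markers of other cell types differed widely in level. Endothelial markers summed to at most 45.4 CPM, T cell markers, led by *Il7r*, to 22.1, 40.9, 37.2, 89.2 and 121 CPM, and B cell markers, led by *Ighm*, to 61.1 to 177 CPM. Epithelial markers, led by *Scgb1a1*, an abundant airway secretory transcript, summed to 197 to 850 CPM. NK cell markers summed to 83.8 to 212 CPM, with the defining genes *Klra8*, *Prf1* and *Eomes* at 0. Fibroblast markers summed to 168 CPM on day 7 and to 4.66 to 14 CPM elsewhere, and erythroid markers to at most 95 CPM. Plasmacytoid DC markers summed to 218, 3638, 530, 587 and 358 CPM, led by *Bst2*, which is also interferon-stimulated, with *Klk1* at 0.

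Part of the cDC1 identity genes were lower after injury. Of 30 measured, 23 reached 100 CPM, and 8, 4, 6 and 7 of them were at least 2-fold lower on day 3, day 7, day 14 and day 28, against 5.8, 4.82, 6.17 and 8.16% of all genes. The medians of 26 members were -0.50, -0.22, -0.53 and -0.76 on the log2 scale, against 0.03, 0.02, 0.03 and -0.08 for all genes. Among macrophage-low cDC1s, the lower genes numbered 8, 2, 2 and 3 of 23, 23, 24 and 23, against 6.7, 5.55, 4.83 and 5.49% of all genes. The medians were then -0.52, -0.14, -0.10 and -0.19, so that day 7 to day 28 lay close to all genes and day 3 did not. In those cells *Irf8* was at 1608, 1690, 1446, 1115 and 1159 CPM, so the later days stayed below sham by less than in all members.

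Cell cycle genes were lower on day 14 and day 28. Of 35 measured, 9 reached 100 CPM, and 8 and 9 of them were at least 2-fold lower and 0 higher, against 6.17% and 8.16% lower among all genes (medians of 12 members -1.97 and -1.32). For the macrophage-low members alone, 8 and 4 of 9 were lower, against 4.83% and 5.49% (medians -1.73 and -0.86), so the day 28 count depended on members holding macrophage transcripts. *Mki67*, a marker of dividing cells, was at 184, 95.4, 132, 38 and 44.8 CPM, and *Top2a*, a DNA topoisomerase, at 184, 112, 203, 35.5 and 73.3 CPM. Day 14 and day 28 lay below the other libraries for both. The ubiquitin ligase gene *Ube2c* was at 192 CPM in sham, 4.13 on day 14 (46.5-fold lower, 19.5 to 145) and 25.1 on day 28, or 44.5 CPM on day 28 in macrophage-low members. *Birc5*, survivin, was 6.49-fold and the histone gene *H2afx* 7.68-fold lower on day 14. After each cell was thinned to 3000 UMIs, 14.9% (exact 95% binomial interval 6.2 to 28.3%) of sham cDC1s had at least 2 UMIs of 11 mitotic genes. The share was 23.1% (8.97 to 43.6%) on day 3, 26.3% (21 to 32.1%) on day 7, 8.47% (2.81 to 18.7%) on day 14 and 7.79% (2.91 to 16.2%) on day 28. The day 7 interval lay above those of day 14 and day 28, and sham overlapped all. In cDC2s the shares were 11.8, 2.94, 14, 8.93 and 0% (0 of 27 cells, interval up to 12.8%), and in mature DCs at most 4.39%. In edgeR's test of cDC1s against cDC2s across the 5 libraries, 0 of 31 cell cycle genes passed and 9 had an unadjusted p below 0.05 (median log2 fold change 0.53), against 24.3% of all genes with such a p. In macrophage-low members, 7 were higher in cDC1s, against 9.08% of all genes.

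The reporter transcript, listed in the files as RFP and taken here as tdT, was also counted in cDC1s. After thinning to 3000 UMIs it was found in 19.1% of cDC1s in sham, 42.3% on day 3, 20% on day 7, 57.6% on day 14 and 27.3% on day 28. The same shares were 30.4, 19.3, 29.8, 54.9 and 29.9% in T cells and 18, 17.1, 26.5, 40.4 and 19.7% in B cells, which the *Ms4a3* line should not label. Their shares serve as the background. Of T cells, 6.9, 4.02, 20.1, 6.6 and 8.71% held macrophage transcripts, and of B cells 7.37, 5.22, 30.1, 16.3 and 11.5%. On day 7 both were above the 8.63% of cDC1s. On day 3 the cDC1 interval (23.4 to 63.1%, 11 of 26 cells) lay above that of T cells (16.9 to 21.8%). This was not particular to cDC1s, since mature DCs on day 3 (33.3%, 24.8 to 42.8%) also lay above T cells. The day 3 cDC2s were at 35.3% (19.7 to 53.5%), which overlapped T cells. With 23 macrophage-low members the cDC1 share was 39.1% (19.7 to 61.5%), and the wider interval overlapped that of T cells. Cells holding macrophage transcripts were not left out of the T cells. In sham and on day 14 and day 28 the intervals of cDC1s and T cells overlapped, and on day 7 that of cDC1s (15.3 to 25.4%) lay below that of T cells (27.2 to 32.6%). With at least 3 UMIs the shares were 0, 11.5, 1.18, 18.6 and 7.79% in cDC1s and 1.26, 2.72, 4.83, 10.7 and 2.65% in T cells, so cDC1s were higher on day 3, day 14 and day 28. Their intervals on those days (2.45 to 30.2, 9.69 to 30.9 and 2.91 to 16.2%) overlapped those of T cells (1.81 to 3.9, 8.84 to 12.8 and 1.75 to 3.83%). In macrophage-low members the cDC1 shares were 8.7, 8.89 and 5.17% on these days. Over the 5 libraries the mean was 33.3 ± 16.5% (SD) in cDC1s and 32.9 ± 13.2% in T cells, a difference of 0.4 percentage points (exact sign-flip permutation test, two-sided, p = 0.938). Against cDC2s (28.1 ± 14.5%) the difference was 5.14 ± 11.4 points (SD), higher in 3 of 5 libraries (exact p = 0.438), and against B cells 8.92 ± 12.6 points (exact p = 0.188). With 5 libraries the smallest possible p of this exact test is 0.0625. In classical monocytes, the cells the line marks, the shares were 72, 72.9, 29, 31.2 and 36.4%. Day 14 and day 28 rest on 5 of 16 and 8 of 22 monocytes (intervals 11 to 58.7% and 17.2 to 59.3%). Of the monocytes, 22.5, 32.4, 35.5, 12.5 and 8.7% held macrophage transcripts. Without thinning, 66.7, 69.2, 62, 93.2 and 61.5% of cDC1s had an RFP UMI.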

How the data were processed

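Lung cells were captured with the 10X 3′ v3.1 chemistry. The authors deposited raw UMI counts per gene and barcode, made with Cell Ranger 6.0.0 on mm10 and including the feature RFP, before their filters on cells. Kept were barcodes whose detected genes numbered 300 to 8000, whose UMIs numbered 800 to 60000, and whose mitochondrial share was below 15%. Cells of each class were chosen by raw UMIs: cDC1s as stated, cDC2s by *Cd209a* and *Mgl2* (at least 2 together, at most 2 C1q UMIs), mature DCs by *Fscn1* and *Ccr7* (at least 2 each). The limits listed here are not the full cDC2 rule, which also barred any UMI of *Xcr1* or *Clec9a*. The level of both genes in cDC2s, 0 CPM in every library, therefore describes the selection and is no result. The members and gene lists were chosen with earlier results of these data known. The 13 selection genes were left out of the class tests, and *Ccr7* also against mature DCs. Of the listed genes, those that are not features of the files are not analysed here. Doublets were kept, and their removal (Scrublet in scanpy 1.11.5, top-scoring 0.8% per 1000 barcodes, which held 32 cDC1s) was an alternative.

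Classes were compared with edgeR 4.0.16 (R 4.3.3) on summed counts, quasi-likelihood test with Benjamini-Hochberg adjustment at 0.05, checked on simulated counts. DESeq2 1.42.0 was an alternative. Named genes were the 10 largest log2 fold changes each way among genes past the threshold, in the same direction in every library, with at least 50 CPM (mean) in the higher class. For days they were the 5 largest each way among genes past the 2-fold rule with counting intervals apart. Both leave out ribosomal, mitochondrial, Gm and Rik names, and a few genes that meet these rules are not reported here. A ratio to 0 used a floor of 3 counts. Shares have exact 95% binomial intervals and levels exact Poisson intervals (scipy 1.17.1). Depth per library is given above with the totals, and the p-values measure spread between 5 libraries whose animals the labels do not give. Promoters came from RefSeq (GRCm38.p6) and gene positions from GENCODE vM21.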

Additional observations from a re-analysis of the deposited data

Results flagged for a closer look

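Among the 40 named genes of the class comparisons, the 5 libraries were checked for a value far from the others. Chance alone marks about 1 in 20 such groups. The ratios were taken after adding 1 CPM to both levels. The log2 ratio of *Dnase1l3* between cDC1s and cDC2s was 0.98 in sham and 4.95 to 6.23 in the other 4 libraries, with 12.5 CPM in the sham cDC2s. The log2 ratio of *Siglece* was -5.70 on day 3, where cDC1s had 0 CPM, against -3.99 for the nearest library. The log2 ratio of *Rab7b* between cDC1s and mature DCs was 8.58 in sham, where mature DCs had 0 CPM, against 4.92 for the nearest and 4.04 for the lowest library. These 3 genes had the same direction in all 5 libraries, as every named gene had to. With a floor of 3 counts for a library at 0 in place of the added 1 CPM, chosen after seeing the data, *Siglece* was at -3.49 on day 3 against -4.48 to -3.78 in the others and *Rab7b* at 5.59 in sham against 4.16 to 5.11, so both distances rested on the added 1 CPM. *Dnase1l3* was at 1.04 in sham against 2.70 to 6.79, with 2 libraries at 0 in cDC2s, and was no longer far from the others by the same measure.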

How the results depend on the processing

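Day 7 had the highest cDC1 share under every setting tried. With up to 1 UMI of each barred gene the shares were 0.855% in sham, 4.08% on day 7, 1.12% on day 14 and 1.13% on day 28, and with no bar 1.16, 0.812, 5.76, 2.04 and 1.58% from sham to day 28. Requiring 3 UMIs of *Xcr1* and *Clec9a* gave 0.541% on day 14, and 1 UMI of each 0.516% on day 14 and 0.584% on day 28. The UMI floor of day 7 gave 1.04 and 1.01% on those days. Leaving out members with macrophage transcripts gave 0.574% on day 28, and selecting on cells thinned to 3000 UMIs gave 0.083% on day 3. With no bar, the day 14 interval (1.73 to 2.38%) lay above that of sham (0.95 to 1.4%). It also did when selecting on thinned cells (0.755 to 1.25% against 0.282 to 0.581%).

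The reporter was seen in 66.7, 69.2, 62, 93.2 and 61.5% of cDC1s without thinning, in 0, 11.5, 1.18, 18.6 and 7.79% with at least 3 UMIs, and on day 28 in 17.2% without members holding macrophage transcripts. The share with at least 2 UMIs of the whole cell cycle list was too near 100% to rank the days. It was 100% on day 3, day 7 and day 14 and 98.7% on day 28 without thinning. With at least 5 UMIs it was 76.6% in sham, 72.9% on day 7, 57.6% on day 14 and 55.8% on day 28. With 11 mitotic genes it was 14.9, 23.1, 26.3, 8.47 and 7.79%.

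Against cDC2s, 871 genes were higher and 694 lower with no filter on low counts, 194 and 134 with no library block, 167 and 137 with cells thinned to 3000 UMIs, and 762 and 702 with no C1q limit on cDC2s. Leaving out members with macrophage transcripts gave 560 lower genes and allowing 1 UMI of each barred gene 572. Leaving out each library in turn gave 265 to 366 higher and 187 to 320 lower genes, with 274 higher and 187 lower without day 7 and 265 higher without day 14. Against mature DCs, thinning gave 865 and 775 genes, and leaving out each library 1413 to 1710. With a minimum of 50 CPM, the genes 2-fold higher and lower numbered 321 and 195 on day 3, 100 and 106 on day 7, 399 and 176 on day 14, and 357 and 221 on day 28. Without members holding macrophage transcripts, 114 were higher on day 14 and 40 higher and 78 lower on day 28, and a mean over cells gave 78 lower on day 28. *S100a9* on day 3 reversed, to a log2 ratio of 0.01, with up to 1 UMI of each barred gene. For single named genes, 753 values under other settings kept their direction and call or moved by less than their spread, 54 moved further and only this 1 reversed. The causes were not tested. With 26 cDC1s on day 3 and 48 in sham, differences near 2-fold in low genes were not resolved.

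Time points could not be paired, since each has 1 library. The class comparisons were paired by library, through the block in edgeR and the within-library differences of the reporter.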
